A study of Mus musculus with 46 samples.

Results

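In the arcuate nucleus of male mice, 3565 of 66560 open chromatin regions were selective for nuclei that carried no AgRP reporter. They were chosen by their measured values. In a table of 67472 ATAC-seq peaks, counts were divided by the library total and scaled to counts per 1000000 (CPM), and 66560 peaks with a mean over 1 CPM were kept. A peak was taken as AgRP-negative-selective when log2 of mean AgRP-positive over mean AgRP-negative CPM was at most -1.5 and its highest AgRP-positive value was below its lowest AgRP-negative value. The same rule turned round gave 12302 AgRP-positive-selective peaks, and 38 further peaks passed the ratio but had overlapping libraries. The rule therefore kept 5.36% of the peaks as AgRP-negative-selective and 18.5% as AgRP-positive-selective. All AgRP-positive libraries lay below all AgRP-negative libraries in 25.1% of the peaks and above them in 43%. These shares describe the choice, and levels in the sorted libraries are given below with no test.

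The mice carried NuTRAP, a Cre-dependent reporter that tags nuclei and ribosomes with GFP, together with AgRP-IRES-Cre, so that labelling followed Cre expressed from the *Agrp* locus. They were 6 to 11 weeks old, fed ad libitum and untreated. For each library, nuclei of the dissected arcuate nuclei of 4 mice were pooled, sorted by GFP fluorescence, and about 10000 nuclei were collected as GFP-positive (AgRP-positive) or GFP-negative (AgRP-negative), with both sorts taken from the same pools. The GFP-negative sort was labelled as non-AgRP neurons, but no neuronal marker was used in the gate. Total counts in peaks were 8685497 and 8847661 for the 2 AgRP-negative libraries and 10802847 and 11177208 for the 2 AgRP-positive libraries. Other libraries of the same study had no part in the choice. ATAC-seq of AgRP-positive nuclei covered mice that were fed, fasted for 18 to 20 hours, or fasted and given leptin at 5 mg/kg. TRAP RNA came from AgRP neurons and, in POMC-IRES-Cre mice, from POMC neurons, all of fed mice. CUT&RUN of CTCF came from AgRP nuclei and from cerebellum. CUT&RUN of IRF3 came from AgRP nuclei of mice with the constitutively active IRF3-2D.

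ATAC-seq cuts DNA that is free of nucleosomes, so a peak marks a promoter or an enhancer that is open in at least some of the cells. Promoters of housekeeping genes are open in most cell types, whereas distal enhancers differ between them, and the enhancers of a cell type tend to lie near the genes that define it. The arcuate nucleus holds AgRP neurons, which are GABAergic and promote feeding, beside POMC, kisspeptin, GHRH, dopamine and glutamatergic neurons, astrocytes, oligodendrocytes and their precursors, microglia, vascular cells, and the tanycytes that line the ventricle.

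Sequences of 7 AgRP-negative-selective peaks are shown because they lie at marker genes of different cell classes or hold the motifs described below. Each is the central 300 bases of the peak, on the plus strand of GRCm38 (mm10) as given by RefSeq, with 1-based coordinates. Capitals mark matches, on either strand, to the motifs that were searched for. The *Nkx2-2* window held an OLIG and NEUROD E-box, CATATG. The window upstream of *Fgfr3* held the SOX motif ACAATGG between TEAD motifs (GGAATG, seen here as its reverse complement). The window at the *Bdnf* start site held the CTCF core AGGGGGC, and the one upstream of *Sox2* held no match. At *Dlx6* the cyclic AMP response element TGACGTCA and the CTCF core shared bases. The windows nearest *Rgma* and *Astn2* held both the nuclear factor I (NFI) half-site TTGGCA and the SOX motif, and were picked after their values were seen.
Nkx2-2 intron, chr2:147180715-147181014: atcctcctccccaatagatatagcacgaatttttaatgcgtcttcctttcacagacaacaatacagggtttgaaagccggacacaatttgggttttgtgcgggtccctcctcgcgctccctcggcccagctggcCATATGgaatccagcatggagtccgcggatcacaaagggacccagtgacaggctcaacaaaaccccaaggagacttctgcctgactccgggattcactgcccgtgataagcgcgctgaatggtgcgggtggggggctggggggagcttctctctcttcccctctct
Fgfr3 upstream, chr5:33705219-33705518: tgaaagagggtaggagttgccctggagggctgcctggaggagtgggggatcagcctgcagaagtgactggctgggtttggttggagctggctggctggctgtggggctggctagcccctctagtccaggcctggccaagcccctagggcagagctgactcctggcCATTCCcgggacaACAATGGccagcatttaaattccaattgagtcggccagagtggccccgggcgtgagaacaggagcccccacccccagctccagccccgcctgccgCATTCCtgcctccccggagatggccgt
Sox2 upstream, chr3:34642539-34642838: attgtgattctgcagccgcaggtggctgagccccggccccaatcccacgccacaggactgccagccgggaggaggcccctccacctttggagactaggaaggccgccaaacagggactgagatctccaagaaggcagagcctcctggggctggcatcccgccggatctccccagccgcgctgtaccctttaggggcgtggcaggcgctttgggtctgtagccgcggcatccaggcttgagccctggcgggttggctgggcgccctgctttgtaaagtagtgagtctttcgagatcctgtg
Bdnf start site, chr2:109677282-109677581: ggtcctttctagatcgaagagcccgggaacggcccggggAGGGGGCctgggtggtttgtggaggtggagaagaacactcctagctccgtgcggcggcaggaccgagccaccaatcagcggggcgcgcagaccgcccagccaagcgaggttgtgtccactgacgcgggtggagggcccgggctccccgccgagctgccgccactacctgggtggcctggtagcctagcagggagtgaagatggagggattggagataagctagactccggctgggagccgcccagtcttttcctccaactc
Dlx6 start site, chr6:6862753-6863052: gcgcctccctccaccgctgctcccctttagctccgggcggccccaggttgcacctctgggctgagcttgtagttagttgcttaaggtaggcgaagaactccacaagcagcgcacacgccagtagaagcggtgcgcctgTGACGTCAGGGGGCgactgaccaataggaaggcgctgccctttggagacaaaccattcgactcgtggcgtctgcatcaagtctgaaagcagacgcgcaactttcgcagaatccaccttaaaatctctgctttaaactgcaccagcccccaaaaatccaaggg
Rgma region, chr7:73185260-73185559: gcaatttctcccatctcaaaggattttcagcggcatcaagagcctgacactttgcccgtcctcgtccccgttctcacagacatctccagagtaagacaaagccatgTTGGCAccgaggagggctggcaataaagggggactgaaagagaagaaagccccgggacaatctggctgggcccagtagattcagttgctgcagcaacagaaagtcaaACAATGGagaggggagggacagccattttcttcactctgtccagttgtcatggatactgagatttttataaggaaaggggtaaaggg
Astn2 region, chr4:66482778-66483077: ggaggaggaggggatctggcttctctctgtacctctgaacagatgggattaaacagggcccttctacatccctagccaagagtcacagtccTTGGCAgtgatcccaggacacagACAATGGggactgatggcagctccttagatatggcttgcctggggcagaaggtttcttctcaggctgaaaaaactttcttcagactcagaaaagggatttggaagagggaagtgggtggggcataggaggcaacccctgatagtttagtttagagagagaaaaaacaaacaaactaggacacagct

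The AgRP-positive libraries held few counts in the AgRP-negative-selective peaks. Their median level was 4.26 and 4.18 CPM in AgRP-negative replicates 1 and 2, from a median of 37 counts in each, and 1.02 and 1.07 CPM in the AgRP-positive replicates, from 11 and 12 counts. Over all kept peaks the medians were 4.03 and 4.07 CPM in AgRP-negative and 5.46 and 5.55 CPM in AgRP-positive replicates, so in AgRP-negative nuclei these peaks were of about the usual level. Together they took 1.93% and 1.94% of the counts of the AgRP-negative libraries and 0.465% and 0.501% of those of the AgRP-positive libraries. The median log2 ratio was -1.96 and the most negative was -4.34. Replicates of these peaks differed by a median of 0.46 on the log2 scale in AgRP-negative and 0.54 in AgRP-positive nuclei. A level over 10 CPM in AgRP-negative nuclei was reached by 335 of the peaks (9.40%), against 25.3% of all kept peaks. Over all kept peaks, log2(CPM + 1) correlated at r = 0.962 between the AgRP-negative replicates, 0.958 between the AgRP-positive replicates and 0.792 to 0.801 between sorts, across peaks that share libraries. Mitochondrial peaks took 6.17% and 6.02% of AgRP-negative counts and 4.39% and 4.05% of AgRP-positive counts. The 10 peaks with the most counts in each library took 20.9% and 20.6% of AgRP-negative and 14.6% and 13.6% of AgRP-positive counts. The part of these differences in the ratios was not tested. A lower value in a sort may come from fewer cells of a type or from less open chromatin in each cell, and these cannot be told apart here.

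**Figure D1:**
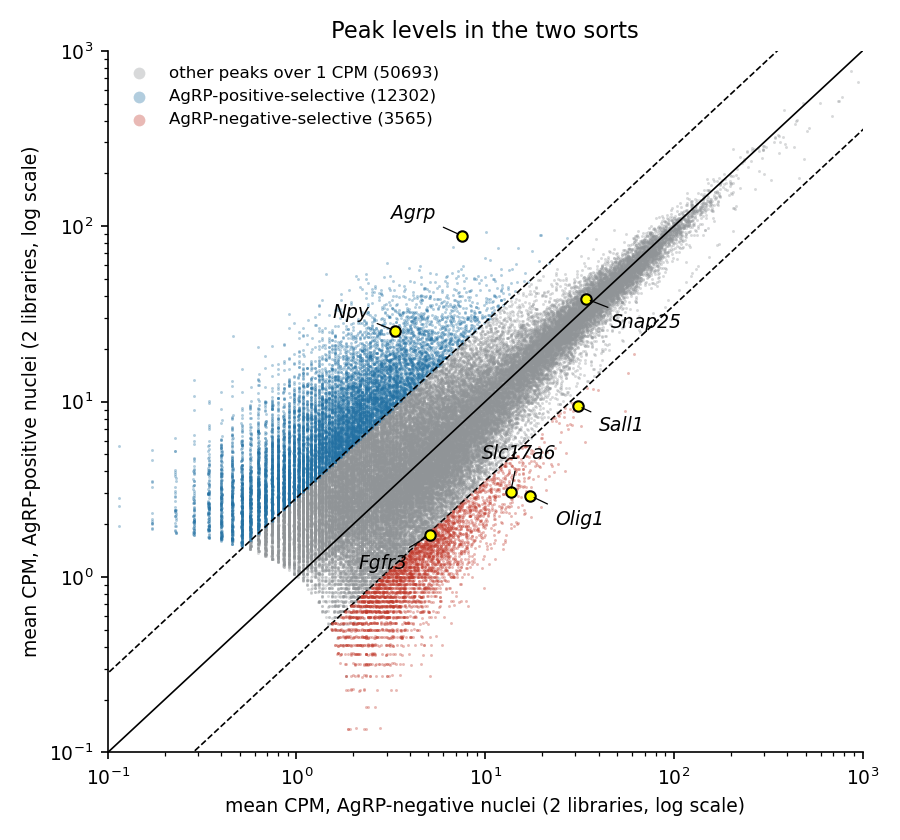
Mean CPM of each peak in AgRP-negative nuclei (x axis) and AgRP-positive nuclei (y axis), both on log scales, for the 66560 kept peaks except 22 that lie above 1000 CPM. The solid line marks equal levels and the dashed lines a log2 ratio of -1.5 or 1.5. AgRP-negative-selective peaks, which the rule places below the lower dashed line, are fewer (3565 against 12302) and lie at lower levels than AgRP-positive-selective peaks. Yellow points mark the start-site peaks with the largest ratio at 7 marker genes.

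On either side of the threshold the values differed little. Just inside it, an intronic peak of *Sec16b* had 8.29 and 4.29 CPM in AgRP-negative and 1.94 and 2.51 CPM in AgRP-positive nuclei. Peaks nearest *1700024P04Rik* and *Cilp* were the other two just inside. Just outside, an intronic peak of *Tshz2* had 2.88 and 2.03 CPM in AgRP-negative and 1.11 and 0.626 CPM in AgRP-positive nuclei. Peaks nearest *Capn8* and *Rab30* were the next outside, the latter with 9.44 and 12.7 CPM in AgRP-negative and 3.61 and 4.20 CPM in AgRP-positive nuclei.

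The peaks lay mainly far from gene starts. Of the 3565, 247 (6.93%) lay within 1000 bases of the annotated start of a protein-coding transcript, 141 (3.96%) lay in exons, 1490 (41.8%) in introns and 1687 (47.3%) between genes. The median distance to a start was 50145 bases, compared with 28620 over all kept peaks and 64771 over AgRP-positive-selective peaks. Among all kept peaks, 21.2% were at starts, and of these start-site peaks 1.75% were AgRP-negative-selective and 1.05% AgRP-positive-selective. Within the middle range of the members' levels (a mean of 1.85 to 3.90 CPM), 5.27% of AgRP-negative-selective and 4.43% of all kept peaks were at starts. At AgRP-positive-selective peaks, only 148 (1.20%) were. A further 157 peaks (4.73% of those away from protein-coding starts) lay at the start of a noncoding transcript, against 5.06% of all kept peaks.

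Length and base composition differed from those of other peaks. AgRP-negative-selective peaks were short, with a median length of 291 bases against 447 over all kept peaks and 427 over AgRP-positive-selective peaks. The median GC content was 48.7%, close to the 49.5% of all kept peaks and above the 42.8% of AgRP-positive-selective peaks. CpG dinucleotides numbered 1.26 per 100 bases, against 1.63 and 0.914. Repeats masked most of the sequence in 102 of the peaks (2.86%), compared with 5.11% of all kept peaks. The X chromosome held 51 of the peaks among its 1792 kept peaks (2.85%), the lowest share of any chromosome but Y, which had none among 52. Chromosome 3 had the highest, 273 of 3898 (7.00%).

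Marker genes of 11 cell classes, 142 genes in all, were used to describe where the peaks lay. A peak was counted when it lay in a listed gene or within 20000 bases of it. The share that was AgRP-negative-selective, 5.36% over all kept peaks and 4.65% (2313 of 49761) over peaks at any protein-coding gene, was 39.1% (9 of 23) at glutamatergic neuron genes, 29.6% (16 of 54) at astrocyte genes and 23.5% (16 of 68) at oligodendrocyte lineage genes. It was 24.4% (11 of 45) at forebrain patterning transcription factors, many of which define hypothalamic or telencephalic neurons other than AgRP neurons. It was 10.2% (5 of 49) at genes of other arcuate neurons, 8.51% (4 of 47) at tanycyte and ependymal genes, 8% (2 of 25) at GABAergic genes and 7.14% (2 of 28) at microglial genes. The tanycyte share was 3.70% (1 of 27) within 5000 bases and, within 50000 bases, the microglial share was 3.70% (2 of 54) and the GABAergic share 4.76% (2 of 42), all below the share over all kept peaks. The share at genes of other arcuate neurons was 17.2% (5 of 29) within 5000 bases and 7.06% (6 of 85) within 50000 bases. At pan-neuronal genes the share within 20000 bases was 4.69% (6 of 128), near the share over all kept peaks. No AgRP-negative-selective peak lay among 55 kept peaks at AgRP neuron genes or among 42 at endothelial and mural genes. Of those same peaks, 27 (49.1%) and 10 (23.8%) were AgRP-positive-selective. Within 50000 bases, 1 of 78 kept peaks at AgRP neuron genes was AgRP-negative-selective. These counts come from the contrast that chose the peaks and are a description.

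**Figure D2:**
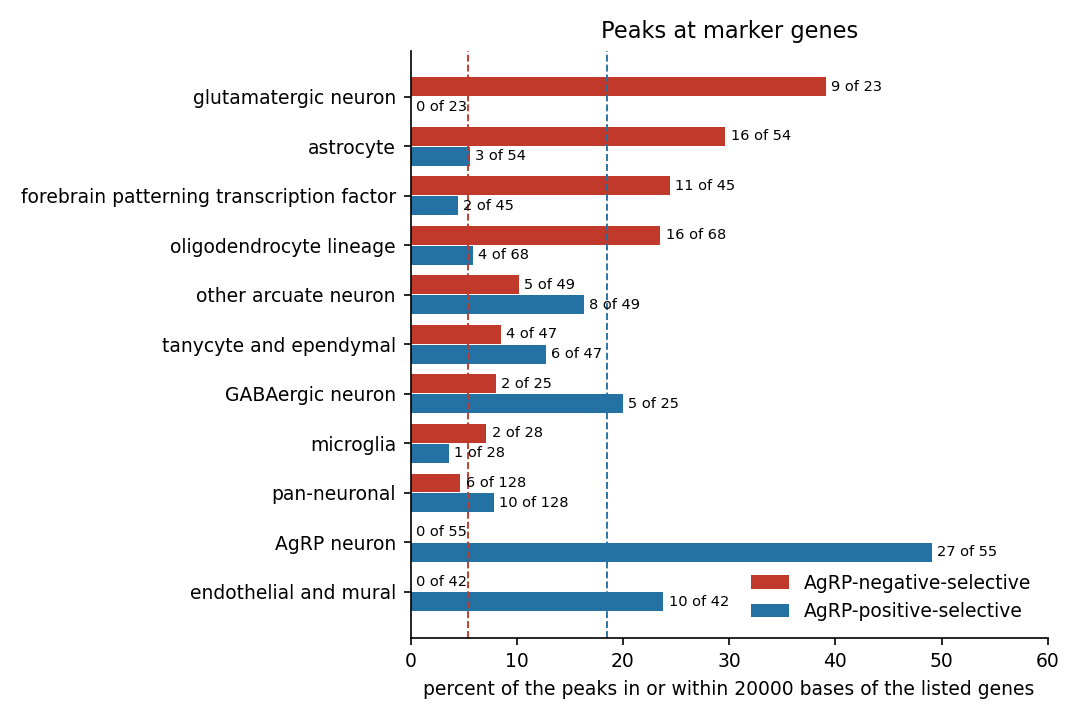
Percent of kept peaks in or within 20000 bases of the genes of each marker list (x axis) that were AgRP-negative-selective (red) or AgRP-positive-selective (blue), with counts beside the bars. The dashed lines mark the shares over all kept peaks, 5.36% in red and 18.5% in blue. Glutamatergic, astrocyte, forebrain transcription factor and oligodendrocyte genes have red bars well to the right of the red line, and AgRP neuron genes have none.

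Oligodendrocyte lineage genes had 16 AgRP-negative-selective peaks, 3 of them at start sites. *Olig1* and *Olig2* encode transcription factors of oligodendrocyte precursors. The peak at the *Olig1* start, chr16:91269499-91270529, had 17.7 and 17.0 CPM in AgRP-negative and 2.50 and 3.31 CPM in AgRP-positive nuclei, a log2 ratio of -2.58. At the *Olig2* start the levels were 6.33 and 4.86 CPM against 1.20 and 1.25 CPM. An intronic peak of *Nkx2-2*, a regulator of oligodendrocyte differentiation that is also used in the ventral hypothalamus, had 12.8 CPM in both AgRP-negative replicates and 1.30 and 1.97 CPM in AgRP-positive nuclei, a log2 ratio of -2.97. *Mbp*, which encodes a structural protein of myelin, had a start-site peak among them too, with 10.0 and 4.86 CPM against 2.31 and 1.43 CPM. In all, 9 of the 15 listed genes had at least 1 AgRP-negative-selective peak, and none lay at *Sox10*, *Pdgfra*, *Mobp*, *Mog*, *Mag* or *Opalin*.

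Astrocyte genes showed a similar picture at lower levels. An AgRP-negative-selective peak lay at 9 of the 13 listed genes, and none lay at *Gja1*, *S100b*, *Aldoc* or *Sox9*. Of the 12 start-site peaks, 10 had lower means in AgRP-positive nuclei, and both at *Aqp4* had higher means there. At *Aldh1l1*, a folate enzyme used to mark astrocytes, the start-site peak had 6.33 and 5.09 CPM in AgRP-negative and 1.48 and 1.52 CPM in AgRP-positive nuclei. At *Gjb6*, which encodes the gap junction protein connexin 30, it had 6.56 and 5.20 CPM against 2.13 and 1.16 CPM. *Fgfr3*, a growth factor receptor of astrocytes and their precursors, had 4.61 and 5.54 CPM against 1.67 and 1.79 CPM at its start. The stronger *Fgfr3* peak was distal. Lying 16102 bases from the start, at chr5:33705115-33705622, it had 10.7 and 13.8 CPM against 1.94 and 3.04 CPM. An exonic peak of *Agt*, the angiotensinogen gene, had 8.75 and 11.9 CPM against 2.50 and 2.95 CPM. The inward rectifier gene *Kcnj10*, which glia use for potassium buffering, was outside the lists and was picked after its values were seen. It had 6 AgRP-negative-selective peaks among 12. Its strongest, in an intron at chr1:172349839-172350542, had 23.7 and 23.1 CPM against 5.83 and 5.01 CPM.

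Of 47 kept peaks at tanycyte and ependymal genes, 6 were AgRP-positive-selective (12.8%, against 18.5% of all kept peaks). Another 4 were AgRP-negative-selective (8.51%, against 5.36%). Of the 4, 2 lay near *Sox2*, a transcription factor of neural progenitors, tanycytes and glia, and *Nes* and *Foxj1* had 1 each. The peak 7446 bases from the *Sox2* start had 17.5 and 15.5 CPM in AgRP-negative and 3.80 and 2.68 CPM in AgRP-positive nuclei. The start-site peak itself had 40.0 CPM in both AgRP-negative replicates against 12.8 and 16.8 CPM, and its log2 ratio of -1.43 left it outside the rule. Of the 8 start-site peaks of this list, 6 had higher means in AgRP-positive nuclei, with a median log2 ratio of 0.31. *Vim*, which encodes the intermediate filament vimentin, had 15.2 and 16.5 CPM in AgRP-negative and 31.7 and 38.6 CPM in AgRP-positive nuclei. Microglial genes had few start-site peaks. Of 15, 2 had a kept start-site peak. The one at *Sall1* had 33.6 and 28.5 CPM against 9.90 and 8.95 CPM; *Sall1* marks microglia in the brain but also acts in other neural cells.

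Neuronal classes other than AgRP neurons were represented as well. *Slc17a6* encodes VGLUT2, the vesicular glutamate transporter of hypothalamic neurons. Its start-site peak, chr7:51621574-51622488, had 14.4 and 12.9 CPM in AgRP-negative and 2.87 and 3.22 CPM in AgRP-positive nuclei, a log2 ratio of -2.16. *Bdnf*, a neurotrophin with several promoters, had 4 AgRP-negative-selective peaks among 5. The one at chr2:109677131-109677732, next to one of its starts, had 16 and 11.8 CPM against 2.59 and 2.95 CPM, and one at another start had 7.14 and 6.78 CPM against 2.87 and 1.88 CPM. *Fezf1* and *Nr5a1* are transcription factors of the neighbouring ventromedial hypothalamus. Their start-site peaks had 5.64 and 7.80 CPM against 2.13 and 0.895 CPM at *Fezf1*. At *Nr5a1* they had 4.14 and 2.49 CPM against 0.741 and 0.805 CPM. In all, 5 of the 8 listed glutamatergic genes had at least 1 of the 9 AgRP-negative-selective peaks, 4 of which lay at *Bdnf*. None lay at *Slc17a7*, *Slc17a8* or *Sim1*.

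Genes of other arcuate neurons went both ways. Of their 49 kept peaks, 5 were AgRP-negative-selective (10.2%, against 5.36% of all kept peaks) and 8 AgRP-positive-selective (16.3%, against 18.5%). Of their 9 start-site peaks, 3 were lower in AgRP-positive nuclei, with a median log2 ratio of 0.38. The 5 AgRP-negative-selective peaks lay at *Ghrh* (3), *Kiss1* and *Th*. *Ghrh*, which encodes growth hormone-releasing hormone, had an intronic peak of 9.90 and 15.6 CPM in AgRP-negative and 3.43 and 4.12 CPM in AgRP-positive nuclei. Its start-site peak had 8.17 and 6.44 CPM against 2.22 and 2.77 CPM. The *Kiss1* start, within the neighbouring *Golt1a*, had 1.84 and 6.10 CPM against 1.11 and 0.895 CPM, so that the AgRP-negative replicates differed more than at most other members. At the *Pomc* start the order was the opposite, with 0.921 and 0.565 CPM in AgRP-negative and 3.15 and 1.79 CPM in AgRP-positive nuclei, from 34 counts at most. Start-site peaks of *Esr1*, *Pdyn* and *Sst* and one of the pair at *Cartpt* also had higher means in AgRP-positive nuclei. Of the GABAergic genes, a *Dlx6* start-site peak had 8.52 and 11.3 CPM against 2.50 and 1.43 CPM. *Dlx* genes encode homeodomain factors of forebrain GABAergic neurons. A *Dlx1* exonic peak had 12.9 and 15.7 CPM against 2.96 and 4.74 CPM, while start-site peaks of *Gad1* and *Gad2*, which encode the GABA-synthesizing enzymes, were higher in AgRP-positive nuclei.

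Forebrain patterning factors had 7 AgRP-negative-selective peaks among 21 start-site peaks. *Irx5*, a homeobox gene, had 9.56 and 7.91 CPM in AgRP-negative and 3.24 and 2.51 CPM in AgRP-positive nuclei. *Zic1*, *Tbr1* and *Emx2* had weak peaks of at most 4.38 CPM in any library. At *Emx2* the AgRP-negative values were 4.38 and 0.791 CPM, the latter near the 0.741 CPM of the higher AgRP-positive replicate. Of the 21 start-site peaks, 18 had lower means in AgRP-positive nuclei. Those of *Six3* and *Six6* had higher means there. The *Six6* peak had 5.30 and 7.69 CPM in AgRP-negative and 21.1 and 21.7 CPM in AgRP-positive nuclei.

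Start-site peaks were also summed over the lists. The 8 glutamatergic start-site peaks summed to 65.7 and 59.3 CPM in AgRP-negative and 21.0 and 16.5 CPM in AgRP-positive nuclei, with 5 of the 8 AgRP-negative-selective and the *Bdnf* peak above the most abundant by its AgRP-negative mean. The 12 astrocyte peaks summed to 115 and 118 CPM against 81.0 and 73.4 CPM, with 3 selective. The most abundant of them, *Slc1a2*, which encodes a glutamate transporter, differed little, with 42.4 and 39.3 CPM against 36.4 and 28.1 CPM. The 8 oligodendrocyte peaks summed to 101 and 92.5 CPM against 76.9 and 83.3 CPM, also with 3 selective. The most abundant, at another *Mbp* start, had 28.8 and 26.8 CPM against 40.4 and 42.9 CPM, and only 7 of the 15 genes had a kept start-site peak. The 22 pan-neuronal peaks summed to 470 and 464 CPM against 482 and 450 CPM, with none selective, and *Snap25* had 33.6 and 35 CPM against 39.1 and 37.9 CPM. The 9 peaks of other arcuate neurons summed to 32.5 and 41.1 CPM against 39.1 and 32.0 CPM, and the 11 GABAergic peaks to 97.6 and 107 CPM against 128 and 106 CPM, so the sorts overlapped in both. The 8 tanycyte and ependymal peaks summed to 115 and 124 CPM against 109 and 128 CPM. Sums were lower in AgRP-positive nuclei for the 21 forebrain patterning peaks, with 154 and 150 CPM against 119 and 106 CPM, and for the 2 microglial peaks, with 50.4 and 45.4 CPM against 24.9 and 26.4 CPM. For the AgRP list the sums were 136 and 129 CPM against 322 and 310 CPM, a sum that includes a peak shared with the start of *Ctcf*, next to *Agrp*. The *Agrp* start itself had 6.56 and 8.48 CPM in AgRP-negative and 86.9 and 89.6 CPM in AgRP-positive nuclei. *Npy* had 3.80 and 2.83 CPM against 26.9 and 23.8 CPM, and *Corin* had 3.91 and 1.92 CPM against 13.1 and 14.2 CPM. Start sites of oligodendrocyte and astrocyte genes thus had counts in both sorts. Since the gate used no neuronal marker, the GFP-negative nuclei are called AgRP-negative nuclei and not neurons.

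**Figure D3:**
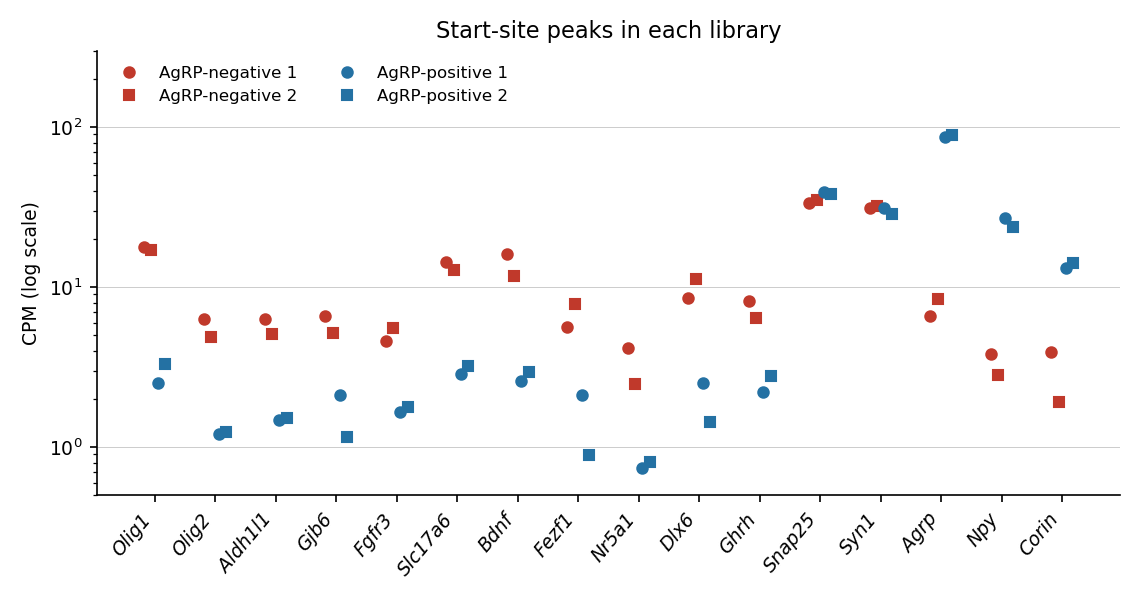
CPM (log scale) of the start-site peak with the largest ratio at 16 marker genes in each of the 4 sorted libraries. From *Olig1* to *Ghrh* both AgRP-negative libraries (red) lie above both AgRP-positive libraries (blue), as the rule requires. *Snap25* and *Syn1* lie close together, and *Agrp*, *Npy* and *Corin* have the reverse order.

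The 10 strongest AgRP-negative-selective peaks included start sites of transcription factor, adhesion and channel genes as well as distal sites. The highest, chr13:83730550-83731460, had 66.7 and 57.0 CPM in AgRP-negative and 17.8 and 19.7 CPM in AgRP-positive nuclei; it lies at the start of the noncoding *Gm26803*, 154873 bases from *Mef2c*, its nearest protein-coding gene. *Pou3f2* encodes BRN2, a POU factor of hypothalamic neurons and of glial precursors. Its start-site peak had 59.3 and 55.4 CPM against 14.2 and 15.0 CPM. Another distal peak, chr13:84347884-84348620, 125558 bases from *Tmem161b*, had 59.1 and 51.2 CPM against 9.72 and 8.05 CPM. Start-site peaks followed at *Lingo2*, a leucine-rich repeat membrane protein gene, with 42.6 and 37.1 CPM against 13.2 and 10.2 CPM. At *Cdh8*, a cadherin gene, they had 35.6 and 32.1 CPM against 6.20 and 5.55 CPM. *Kcns2*, a potassium channel subunit gene, had 35.5 and 29.0 CPM against 7.22 and 7.34 CPM. A pair of strong peaks on chromosome 12, one in *Asap2* and one nearest *Gm21863*, shared 400 of 914 31-base words and had a median of 3 and 6 copies of their words on that chromosome, so their counts are uncertain.

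The steepest ratios came from weak peaks. An intergenic peak nearest *Gm9733* had 16 and 33 counts in AgRP-negative and 2 and 1 counts in AgRP-positive nuclei, for the log2 ratio of -4.34. A peak in an exon of *Itpr2*, with *Sspn* as the nearest start, had 37 and 52 counts against 2 and 4. A *Fgf7* intron peak had 16 and 25 counts against 1 and 2. In the 10 steepest peaks no AgRP-positive library held more than 7 counts, so their ratios carry large counting errors.

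Some genes carried several of the peaks. At least 1 lay in or within 20000 bases of 2308 protein-coding genes, 5 or more lay at 19 genes, and 941 genes had an AgRP-positive-selective peak as well. The genes named next were chosen after their values were seen. *Nr2f1*, encoding the nuclear receptor COUP-TF1, which patterns the forebrain, had 7 among 9 kept peaks, with no AgRP-positive-selective peak. Its strongest, chr13:78203186-78204040, had 25.4 and 19.7 CPM in AgRP-negative and 3.15 and 5.46 CPM in AgRP-positive nuclei. *Pou3f3*, encoding BRN1, a close relative of BRN2, had 6 among 7. The one at its start, chr1:42695575-42695927, had 22.6 and 19.6 CPM against 3.15 and 3.13 CPM. *Pou3f2* had 5 among 6, *Nr2f2* 4 among 6 and *Prdm16*, a zinc finger gene active in neural progenitors and astrocytes, 5 among 11, beside 2 AgRP-positive-selective ones. Genes of nuclear factor I, a family that acts in astrocytes and in late-born neurons, were also in this group. *Nfix* had 5 among 12, including a start-site peak of 16.1 and 14 CPM against 4.07 and 5.01 CPM. *Nfib* had 5 among 20, beside 3 AgRP-positive-selective ones, including a start-site peak of 30.9 and 23.3 CPM against 9.26 and 5.55 CPM. Some long genes had peaks of both kinds, such as *Ctnna2*, with 6 AgRP-negative-selective and 15 AgRP-positive-selective peaks among 49, and others, such as *Fars2* with 5 and 0 among 18, did not. *Gm20388*, whose annotation spans many other genes on chromosome 8, had the most, 15 among 210.

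The DNA of the peaks was searched for 18 short motifs on both strands in the central 300 bases, in 3564 AgRP-negative-selective, 12302 AgRP-positive-selective and 66480 kept peaks. The NFI half-site TTGGCA was found in 26.2% of AgRP-negative-selective peaks (935), in 14.5% of AgRP-positive-selective peaks and in 14.3% of all kept peaks. Away from start sites the shares were 27% of AgRP-negative-selective and 16% of kept peaks. The SOX motif ACAATGG was found in 7.49% (267), 4.8% and 3.93%. TAATTA, the core that LIM and other homeodomain proteins bind, was found in 8.70%, 7.43% and 5.59%. The TEAD motif GGAATG had shares of 17.1%, 15.0% and 13.5%.

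Some other motifs were less frequent in these peaks than over all kept peaks. TGANTCA, which binds AP-1, the activity-dependent FOS and JUN factors, was found in 8.81% of AgRP-negative-selective, 38.5% of AgRP-positive-selective and 17.8% of kept peaks. TTCCNGGAA, the STAT motif, had shares of 0.898%, 6.16% and 2.22%. The SP and KLF motif GGGGCGG, common in CpG-rich promoters, had 4.74%, 1.17% and 11.4%, and the CTCF core AGGGGGC 4.66%, 1.87% and 7.2%, so both were more frequent than in AgRP-positive-selective peaks. In kept peaks of like level (a mean of 1.85 to 3.90 CPM), 3.22% held the SP and KLF motif and 5.16% the CTCF core. CATATG had 2.38%, 4.85% and 3.46%, and the forkhead motif TGTTTAC 3.76%, 6.62% and 4.18%. Of the other motifs, GAGGAAGT (PU.1), GTTGCCA (RFX), AAAGGTCA (nuclear receptors), GAAACTGAA (IRF) and TGTGGTT (RUNX) each differed by under 2 percentage points between the 3 classes. CTATTTATA (MEF2), GCGTGGGCG (EGR) and TGACGTCA (CRE) were each found in under 0.5% of AgRP-negative-selective peaks. The NFI and RFX half-sites can share bases, as can the SP and KLF motif and the CTCF core. A match says only that these letters occur, and no factor's binding was measured by it.

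**Figure D4:**
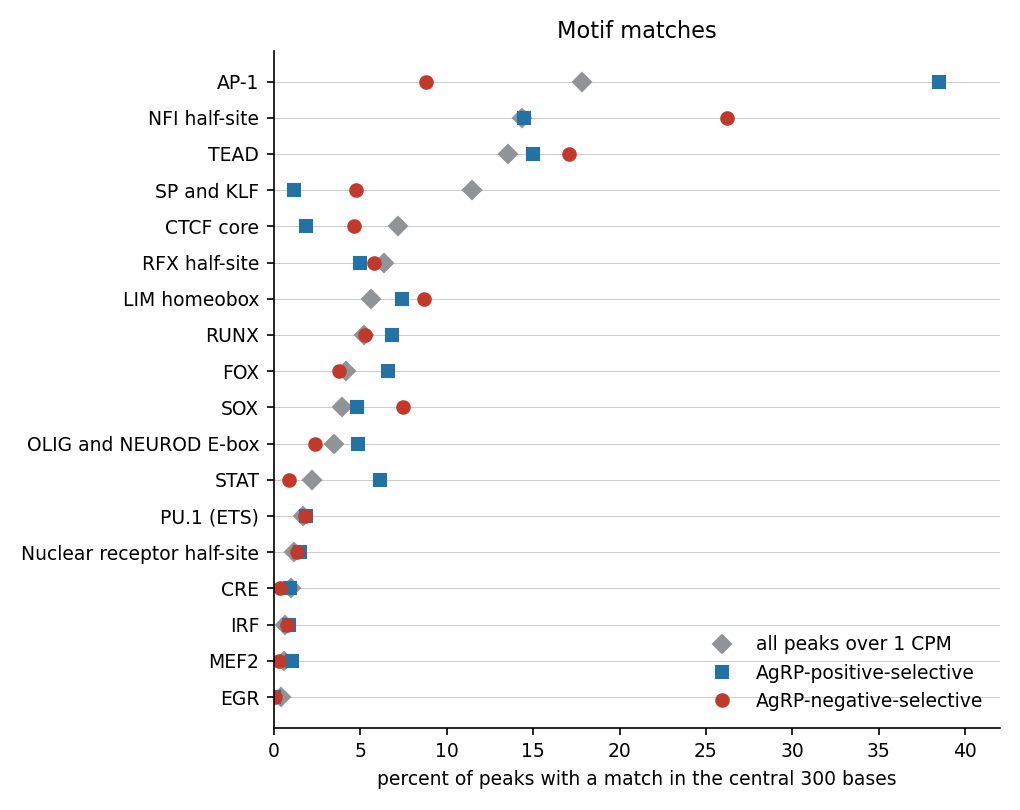
Percent of peaks with at least 1 match in the central 300 bases (x axis) for each of 18 motifs, in AgRP-negative-selective (red circles), AgRP-positive-selective (blue squares) and all kept peaks (grey diamonds). The red circle lies to the right of the other two for the NFI half-site (26.2%) and the SOX motif (7.49%), and far to the left of the blue square for AP-1 (8.81% against 38.5%).

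Other libraries of AgRP-positive nuclei, which were not used for the choice, seldom had a peak at these regions. In ATAC-seq of AgRP-positive nuclei from fed, fasted and leptin-treated mice, a peak overlapped 632 (17.7%) of the AgRP-negative-selective regions, 86.5% of all kept peaks and 98.7% of the AgRP-positive-selective ones. That table covers AgRP-positive nuclei only (2 libraries for each state), and a region with no overlap has no count there. CUT&RUN of CTCF, the insulator protein that anchors chromatin loops, gave peaks at 87 (2.44%) of the regions in 3000 AgRP nuclei, against 27.5% of kept peaks and 23.2% of AgRP-positive-selective peaks. CTCF peaks of 50000 cerebellum nuclei, from a brain region without AgRP neurons, overlapped 319 (8.95%) of them, against 28.1% and 1.99%. Of the regions, 49 were overlapped in both lists, 38 in the AgRP list alone and 270 (7.57%) in the cerebellum list alone. Over all kept peaks, 11177, 7129 and 7504 were so split. In kept peaks of like level (a mean of 1.85 to 3.90 CPM), the AgRP and cerebellum lists overlapped 16.1% and 15.2%. The stronger part of the AgRP list overlapped 60 (1.68%) of the regions, against 22.6% of kept peaks. That of the cerebellum list overlapped 100 (2.81%), against 17.6%, so the 2 lists lay closer together there. IRF3 CUT&RUN in AgRP nuclei of mice with the constitutively active IRF3-2D in these neurons overlapped 107 (3.00%), against 2.80% of AgRP-positive-selective peaks, 13.7% of kept peaks and 5.52% of kept peaks of like level. Each CUT&RUN list came from 1 sample, so these shares have no replicate error and no test.

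**Figure D5:**
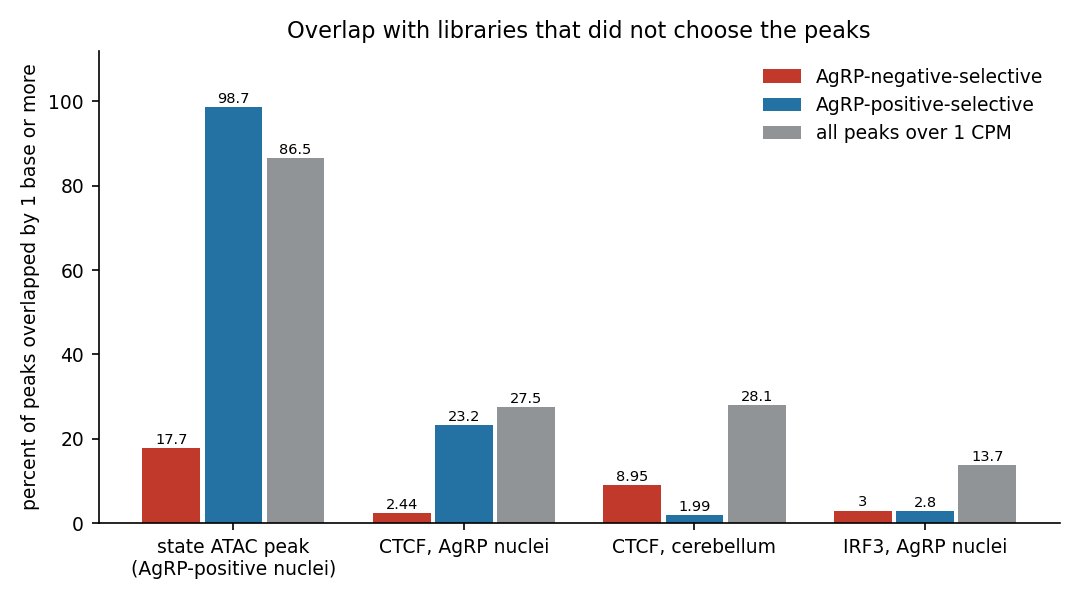
Percent of AgRP-negative-selective (red), AgRP-positive-selective (blue) and all kept peaks (grey) that a peak of another library overlaps by 1 base or more (y axis, from 0). State ATAC peaks overlap 17.7% of the AgRP-negative-selective regions and 98.7% of the AgRP-positive-selective ones. CTCF peaks of AgRP nuclei overlap 2.44% of the former and 23.2% of the latter, and CTCF peaks of cerebellum 8.95% and 1.99%.

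The feeding states asked whether the chromatin that remained open in AgRP-positive nuclei at these regions changed with fasting or leptin. Mice of the same genotype, sex and age were fed and given vehicle (PBS), fasted for 18 to 20 hours and given vehicle, or fasted and given leptin at 5 mg/kg, and nuclei were taken 3 hours after injection. State peaks that overlapped a member and passed the filter numbered 453, among 102237 tested. Their median level was low, from 1.66 to 2.18 CPM in the 6 libraries against 3.28 to 4.07 CPM over all tested peaks.

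In fasted against fed mice, 33 of the 453 peaks rose (7.28%) and 36 fell (7.95%) at a false discovery rate (FDR) under 0.05 and a log2 change over 0.5 by edgeR's quasi-likelihood test. Over all tested peaks 18.1% rose, 8.88% fell and 27% did either. The part of the lower level in the smaller share was not tested. The median log2 change was -0.19 in the 453 and -0.04 in all, and was -0.12 and 0.01 without fed replicate 1. With overlap by 50% of both peaks it was -0.31 in 243 peaks. The steepest decrease was nearest *Spry2*, at chr14:105779347-105779670, with 4.60 and 4.05 CPM in fed and 0.445 and 0.573 CPM in fasted libraries. Its log2 change was -3.10 (SE 0.50, edgeR FDR 0.000216), and the leptin libraries, at 0.277 and 0.931 CPM, stayed near the fasted ones. A peak nearest *Adgrb1*, an adhesion receptor gene, had 10.5 and 8.66 CPM in fed and 1.78 and 1.46 CPM in fasted libraries. One in an intron of *Rcn2* had 3.51 and 3.28 CPM against 0.508 and 0.573 CPM. Among the increases, a peak nearest *Dpy19l1* had 0.121 and 0.140 CPM in fed and 1.08 and 2.86 CPM in fasted libraries. A peak nearest *Gm17728* had 1.09 and 0.908 CPM against 7.62 and 4.71 CPM. One nearest *1190002N15Rik* had 0.484 and 0.209 CPM against 2.16 and 1.53 CPM. These 6 were taken from called peaks whose fed and fasted libraries did not overlap, as was so for 247 of the 453 (54.5%) and for 64.2% of all tested peaks. The *Dpy19l1* peak had 1 and 2 counts in the fed libraries. Without the state in which they were high, the peaks nearest *Spry2*, *Dpy19l1* and *1190002N15Rik* and the one in *Rcn2* had a mean of 0.556, 0.708, 0.880 and 0.710 CPM, so these 4 passed the filter of a mean over 1 CPM only through that state. Leaving out 1 fed or fasted library leaves a state with a single library, which is then assumed to vary like the others. Without fed replicate 1 the counts were 21 up and 14 down of 435, against 11.7% and 4.74% of all tested peaks. Without fed replicate 2 they were 12 and 29 of 449, against 11.5% and 8.20%. Without fasted replicate 1 they were 24 and 19 of 467, against 14% and 5.83%, and without fasted replicate 2 they were 23 and 22 of 455, against 14.2% and 5.0%.

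In leptin-treated against fasted mice, 7 of the 453 peaks rose and 1 fell by the same test, against 2.41% up, 0.669% down and 3.08% either way over all tested peaks. Their median log2 change was 0.01. When both peaks had to overlap by 50%, only 1 peak rose and none fell. This comparison and the previous one share the fasted libraries. The steepest increase lay in an intron of *Tub*, a gene whose mutation causes obesity in tubby mice, at chr7:109023638-109024175. It had 2.42 and 1.75 CPM in fed, 1.71 and 2.04 CPM in fasted and 10.4 and 11.5 CPM in leptin libraries, a log2 change of 2.52 (SE 0.33, edgeR FDR 0.000266). A *Mamdc2* intron peak had 5.02 and 5.92 CPM in fasted and 15.8 and 16.1 CPM in leptin libraries. Another, nearest *1500009L16Rik*, had 2.60 and 1.97 CPM against 8.23 and 7.39 CPM. The single decrease was in an intron of *Lrrc7*, which encodes a postsynaptic scaffold protein, at chr3:158395731-158396376. It had 2.30 and 1.19 CPM in fed, 9.72 and 8.78 CPM in fasted and 2.35 and 2.33 CPM in leptin libraries (log2 change -2.0, SE 0.32, edgeR FDR 0.00130). The leptin and fed libraries were both far below the fasted ones. With 1 fasted or leptin library left out, and the single library left assumed to vary like the others, increases numbered 2 without fasted replicate 1, 4 without fasted replicate 2, 2 without leptin replicate 1 and 3 without leptin replicate 2, against 0.594%, 1.73%, 0.702% and 0.851% of all tested peaks. Decreases numbered 1, 4, 1 and 0, against 0.0303%, 1.43%, 0.130% and 0.00690%.

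RNA bound to tagged ribosomes (TRAP) gave the levels of the genes in AgRP neurons (3 samples) and POMC neurons (2 samples, from POMC-IRES-Cre mice) of fed, vehicle-injected males. POMC neurons are one of the cell types among AgRP-negative arcuate nuclei. A start-site peak of the AgRP-negative-selective set lay at 237 genes, of which 225 were in the RNA table and 178 passed the filter of a mean over 1 CPM. Of the 178, none was higher and 7 were lower (3.93%) in AgRP neurons at an FDR under 0.05 by edgeR. Over all 13453 tested genes, 1.06% were higher, 1.11% were lower and 2.17% were either. At an unadjusted p under 0.05, 1 was higher and 27 were lower (15.2%), against 6.68% higher and 6.73% lower over all tested genes. The median log2 difference of -0.27, against -0.01 over all genes, moved when a sample was left out, being -0.46 without POMC replicate 1 and -0.0028 without POMC replicate 2. By DESeq2, 16 of the 178 were lower (8.99%) and none was higher, against 2.45% lower and 2.42% higher over all tested genes. Without AgRP replicate 1 edgeR called none of the 178, and without AgRP replicate 3 or 4 it called 2 or 3. Shares over all tested genes in these fits are not given here, so the fall cannot be read as particular to these genes.

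The 7 genes were *Pcdh11x*, *Sntb1*, *Trpc7*, *Slc22a3*, *Ptgds*, *Gpr149* and *Sox14*. *Pcdh11x*, a protocadherin gene, had 68.1, 50.8 and 67.1 CPM in AgRP and 165 and 135 CPM in POMC neurons, a log2 difference of -1.36 (SE 0.16, edgeR FDR 0.0127). *Trpc7*, a cation channel gene, had 12.3, 10.8 and 10.5 CPM in AgRP and 44.2 and 22.7 CPM in POMC neurons, so the POMC samples differed widely from each other. *Sntb1*, which encodes a syntrophin, had 4.78, 3.88 and 4.77 CPM against 12.1 and 9.98 CPM. *Ptgds*, a prostaglandin D synthase gene that oligodendrocytes and meningeal cells express strongly, had 23.8, 16.6 and 18.3 CPM against 38.3 and 49.9 CPM. *Slc22a3*, an organic cation transporter gene, had 3.51, 2.59 and 3.01 CPM against 9.01 and 5.98 CPM. AgRP and POMC samples did not overlap at any of the 7. In all, they did not overlap at 37 of the 178 (20.8%), against 23.4% of all tested genes.

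No marker gene with a selective start-site peak that was tested in this RNA passed, and *Emx2* and *Tbr1* were below the filter and not tested. *Slc17a6* had 233, 198 and 229 CPM in AgRP and 293 and 304 CPM in POMC samples, a log2 difference of -0.53 (edgeR FDR 0.177). *Nr5a1* had 14.1, 9.48 and 14.2 CPM against 23.2 and 22.9 CPM, with an edgeR FDR of 0.0892. *Olig1*, a gene of oligodendrocyte lineage cells, had 30.4, 23.5 and 30.3 CPM in AgRP and 30 and 34.7 CPM in POMC samples, and so was present in both TRAP preparations. *Fgfr3* had 59.2, 47.2 and 51.8 CPM against 50.5 and 64.8 CPM. The AgRP marker *Agrp* had 352, 527 and 320 CPM in AgRP and 6.08 and 8.93 CPM in POMC samples. *Npy* had 414, 823 and 618 CPM against 10.8 and 17.3 CPM.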

How the data were processed

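The members, marker lists and tests were chosen with earlier results of these data known, and no list or direction is independent evidence. ATAC reads were, per the labels and the study's methods, aligned to mm10 with Bowtie2, peaks were called with MACS2, and counts per peak were summed with BEDtools. The authors deposited raw counts per peak and per gene; RNA was aligned with HISAT2 and counted with featureCounts. The CTCF lists, as deposited, hold a fold enrichment over background per peak and the IRF3 list a total signal per peak from SEACR; build, caller settings and controls of these lists are not given in the sources used here, and coordinates were used as mm10. The IRF3 list was assigned to its sample as the only SEACR list. Every ATAC peak end lies within its GRCm38 chromosome. Deposited log2 CPM tables, other CUT&RUN lists and other RNA samples were not used here.

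CPM was the count over the library total, computed with Python 3.11.15, NumPy 2.4.6 and pandas 2.3.3. Start sites came from protein-coding transcripts of GENCODE (GRCm38), with 1000 bases on each side. Sequences were read from the GRCm38 RefSeq genome with pysam 0.24.0. State ATAC (2 libraries each of 3 states, 8263234 to 17190963 counts) and RNA (25581041 to 53217053 counts) were tested with edgeR 4.0.16 in R 4.3.3: TMM scaling, quasi-likelihood fit, mean over 1 CPM, Benjamini-Hochberg FDR under 0.05 and an absolute log2 change over 0.5, the study's thresholds. DESeq2 1.42.0 was the alternative. The code was tested on simulated data. Named were: all members at start sites of listed genes; the 2 strongest members per list; the 10 strongest and 10 steepest members; start sites of *Slc17a6*, *Olig1*, *Olig2*, *Sox2*, *Agrp*, *Npy* and *Corin*; 3 peaks on each side of the threshold; and the largest called changes whose libraries did not overlap (3 each way for states, 5 for RNA). Some of these are not reported here. Samples are pools of mice, so p-values measure the spread between pools.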

Additional observations from a re-analysis of the deposited data

How the results depend on the processing

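The number of AgRP-negative-selective peaks rose to 6381 with a log2 ratio of at most -1 and fell to 1675 with at most -2. With TMM-scaled CPM it was 4367, which held all 3565, and without 1 library at a time it ranged from 3516 to 4175, sharing 79.3% to 86.8% of the 3565. AgRP-positive-selective peaks numbered 10494 with TMM-scaled CPM, against 12302 with library totals, so the imbalance between the 2 sets was smaller there. TMM factors were 0.935 and 0.954 for AgRP-negative and 1.04 and 1.07 for AgRP-positive libraries. Fasting increases (33 of 453, 7.28%) numbered 13 of 243 (5.35%) when both peaks had to overlap by 50%, and 12 to 30 were called without 1 library at a time, the 12 without fed replicate 2. Of fasting decreases (36, 7.95%), there were 22 of 243 (9.05%) with 50% overlap, 21 by DESeq2 and 14 to 36 without 1 library at a time, the 14 without fed replicate 1. Leptin increases (7) numbered 1 with 50% overlap, 4 by DESeq2 and 2 to 7 without 1 library at a time; leptin decreases (1) numbered 0 with 50% overlap and 0 to 4 without 1 library at a time. By DESeq2, 15.3% of all tested peaks rose and 6.81% fell with fasting, against 18.1% and 8.88% by edgeR. With leptin these shares were 1.40% and 0.337% by DESeq2, against 2.41% and 0.669% by edgeR. With peaks within 5000 bases of a start, 9 genes were lower and 1 higher in the RNA. Before the filter, 375 genes had such a peak and RNA data, against 225 within 1000 bases. Over all tested genes edgeR called 1.11% lower and 1.06% higher. DESeq2 called 16 lower. By edgeR none was lower without AgRP replicate 1, and at most 3 without AgRP replicate 3 or 4. Cerebellum CTCF overlaps fell from 319 to 100, and IRF3 overlaps from 107 to 58, in the stronger part of each list, where overlaps over all kept peaks also fell, from 18681 to 11746 and from 9143 to 6298. In each of these the cause was not tested. Over all genes of the RNA test, edgeR called 143 higher and 149 lower and DESeq2 326 and 329.

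Whether replicate numbers pair the state libraries is not given by the labels. Deviations of same-numbered libraries correlated at 0.187 (fasted and fed), 0.194 (fasted and leptin) and -0.00107 (fed and leptin), so not every pair deviated together. Mitochondrial peaks took 1.14% to 1.65% of the counts in replicate 1 and 0.683% to 0.731% in replicate 2 of the 3 states, and a shared batch was not tested beyond the block. With a replicate block the fasting calls were 42 up and 43 down (9.27% and 9.49%, against 20.6% and 11.5% of all tested peaks) and the leptin calls 9 up and 4 down (1.99% and 0.883%, against 3.86% and 1.89%). No paired analysis was possible for RNA because AgRP and POMC samples share only 1 number.

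Depth limits the weak peaks most: the lowest member counts were 5 in an AgRP-negative and 1 in an AgRP-positive library, and 2 libraries per sort give no more than a rough spread. The CUT&RUN lists have 1 sample each.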

Other observations

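No AgRP-negative-selective peak lay at the listed genes of blood vessels. The 5 kept start-site peaks of endothelial and mural genes, of which those counted for *Vtn* and *Pecam1* lie at the starts of *Sarm1* and *Milr1*, summed to 80.6 and 94.8 CPM in AgRP-negative and 102 and 102 CPM in AgRP-positive nuclei, with 1 of the 5 lower in AgRP-positive nuclei. Most of the sum came from *Slc2a1*, with 45.7 and 53.2 CPM against 59.3 and 55.1 CPM, and from the *Sarm1* peak, with 28.7 and 33.8 CPM against 30.5 and 37.1 CPM.

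Genes with an AgRP-positive-selective start-site peak were called more in the other direction in the RNA: of 100 tested, 20 were higher and 2 lower in AgRP than in POMC neurons, with a median log2 difference of 0.12. For the AgRP-negative-selective set, with 178 tested, these numbers were 0, 7 and -0.27. Over all tested genes 1.06% were higher and 1.11% lower. The 7 fell to 0 without AgRP replicate 1. The median of -0.27 was -0.0028 without POMC replicate 2. With library total scaling it was -0.16, against 0.08 over all genes. The difference between the sets was not tested. Astrocyte and oligodendrocyte genes were present in the TRAP RNA of both neuron types, with *Aldoc* at 343, 378 and 338 CPM in AgRP and 340 and 346 CPM in POMC samples, and *Gja1* at 118, 86.4 and 109 CPM against 105 and 120 CPM.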
